A study of Zanthoxylum armatum with 15 samples.

Results

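Acyl activating enzymes couple free fatty acids to a carrier in an ATP-dependent reaction, which makes the fatty acid available for later enzymes. Long-chain acyl-CoA synthetases (LACS) form the acyl-CoA thioesters that enter membrane and storage lipids, surface wax and cutin, or beta-oxidation. In Arabidopsis, LACS1 (also called CER8) acts on very-long-chain fatty acids in the synthesis of surface wax and cutin, LACS6 is a peroxisomal enzyme that prepares fatty acids for beta-oxidation, and AAE16 is a plastid protein related to an acyl-ACP synthetase.

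The Zanthoxylum armatum unigenes (assembled transcripts) described here are Cluster-12235.45063, annotated as LACS1, Cluster-12235.44155, annotated as LACS6, and Cluster-12235.44635, annotated as AAE16. They are 3 of the 111318 unigenes of the assembly and were found by identifier in each of the 15 libraries. The names are those of the best Arabidopsis match in the study's supplementary annotation, and their activity in Z. armatum was not measured. They were selected on measured values, being drawn from lists of unigenes chosen as higher in fruits in these same libraries. Comparisons with fruits are therefore given below as descriptions without a test, and tests are limited to the 4 other organs.

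The study sequenced the fruits and 4 other organs, namely mature leaves, leaf buds, roots and stems, of 3-year-old trees of the variety 'Hanyuan putaoqing', with 3 biological replicates of each organ. The trees grew at a field site, the labels name no treatment, and each replicate mixed material of 3 trees. All organs were taken in the same month, when the fruits were full-grown. Whole organs hold many cell types, so a larger share of expressing cells and more RNA per cell cannot be told apart. Library depth was even, with totals from 18802274 to 24081708 estimated fragments. As a check of the organ labels, the FPKM of 20 antenna-protein unigenes, which belong to green tissue, summed to between 10062 and 11721 in fruits, 27128 and 27688 in mature leaves, 6503 and 8995 in leaf buds, only 17.5 and 27.4 in roots, and 9611 and 10361 in stems.

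The study lists qRT-PCR primers under the identifiers of 2 of the 3 unigenes. These primers, whose match to the unigenes was not checked, are printed here as the sequences at hand. They come from the study's primer list, 5′ to 3′, and no unigene sequence was used. The LACS6 primers are 24 and 23 bases long and the LACS1 primers 20 and 22 bases.
LACS6 forward: ggaccaagagtgtcatagagagga
LACS6 reverse: ggttgatggaacagttggagagt
LACS1 forward: ttcgccaccacagcctttta
LACS1 reverse: agcaagaggcaggaaagacaga

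Levels are given as FPKM, as the authors deposited it, which allows unigenes of different length to be compared. FPKM scales fragments to a length of the unigene, which differed somewhat between libraries, and to the fragments of the library. LACS1 was listed at 49.1, 48.9 and 61.7 FPKM in the 3 fruit libraries. It stood at 13.4, 13.6 and 12.8 FPKM in mature leaves, 33.1, 28.1 and 23.5 FPKM in leaf buds, 1.95, 2.0 and 2.27 FPKM in roots and 12.3, 12.1 and 12.7 FPKM in stems. No library of one organ overlapped with a library of the next organ in the order fruits, leaf buds, mature leaves, stems and roots, although the lowest mature-leaf library (12.8 FPKM) and the highest stem library (12.7 FPKM) nearly met. The mean in fruits (53.2 ± 7.35 FPKM, SD, n = 3) was 25.7 times the mean in roots (2.07 ± 0.172 FPKM, SD, n = 3), the widest span of the 3 unigenes. Leaf buds had the largest relative spread between replicates, with a coefficient of variation of 16.95%.

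LACS6 reached 76.2, 111 and 104 FPKM in fruits, the highest level of the 3 unigenes in that organ. The other organs had 20.9, 18.6 and 18.5 FPKM in mature leaves, 28.3, 32.4 and 25.4 FPKM in leaf buds, 12.02, 12.7 and 10.9 FPKM in roots and 12.8, 12.7 and 13.3 FPKM in stems. The lowest fruit library exceeded the highest library of any other organ 2.35-fold, whereas the libraries of stems and roots overlapped. The fruit replicates were the most variable here, with a coefficient of variation of 19.1%, because the first of them was lower than the others. LACS6 rests on the fewest fragments, between 100 and 1263 per library, against 156 to 5117 for LACS1 and 753 to 3729 for AAE16.

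AAE16 had 39.8, 46.7 and 42.8 FPKM in fruits. It had 21.0, 19.9 and 18.9 FPKM in mature leaves, 14.8, 16.2 and 16.0 FPKM in leaf buds, 15.2, 15.6 and 13.3 FPKM in roots and 10.6, 11.7 and 12.9 FPKM in stems. All libraries outside fruits thus lay within a narrow band, and the highest mean outside fruits, in mature leaves (19.9 ± 1.02 FPKM, SD, n = 3), was 1.70 times the lowest, in stems (11.7 ± 1.14 FPKM, SD, n = 3). The corresponding ratio was 2.41 for LACS6 and 13.6 for LACS1. Leaf buds and roots overlapped, and every other neighbouring pair of organs in the order fruits, mature leaves, leaf buds, roots and stems was separate.

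**Figure D1:**
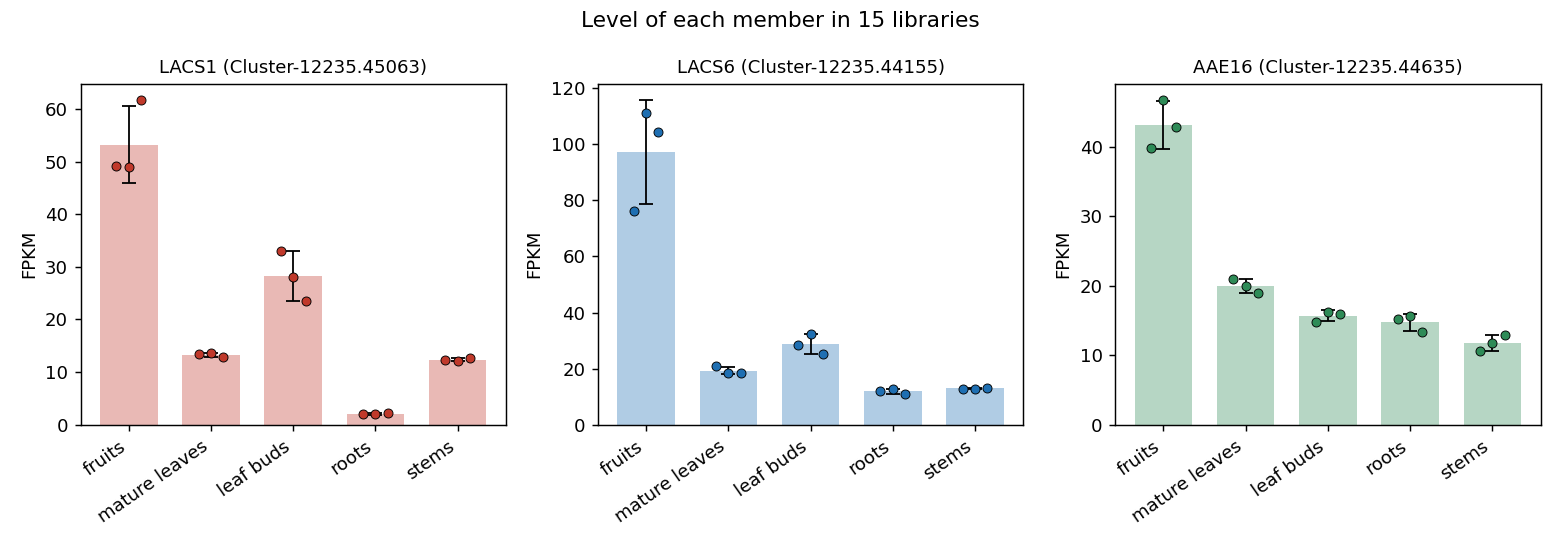
FPKM of LACS1, LACS6 and AAE16 (vertical axis, linear, a separate scale for each panel) in fruits and in mature leaves, leaf buds, roots and stems. Points are single libraries, bars are means and error bars are 1 SD (n = 3). Fruits were highest in each panel, and roots stood apart only for LACS1, at 1.95 to 2.27 FPKM.

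The position of a member among all expressed unigenes also differed between organs. Ranked by mean FPKM among the 57488 unigenes with enough counts to be tested, LACS1 stood at percentile 95.1 in fruits, 79.4 in mature leaves, 88.8 in leaf buds, 34.7 in roots and 73.3 in stems. LACS6 stood at percentile 97.7 in fruits and between 73.9 and 89.1 in the other organs, and AAE16 at 93.8 in fruits and between 72.0 and 86.2 elsewhere. All 3 members had enough counts to be tested.

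Fold changes were estimated with edgeR after TMM normalization, which scales each library by its bulk of unigenes and not by its total alone. A differentially expressed unigene (DEG) had to pass 2 thresholds, 0.05 for the adjusted p and 1 for the size of the log2 fold change. Relative to mature leaves, fruits had a log2 fold change of 1.88 ± 0.13 (SE) for LACS1, 2.21 ± 0.13 for LACS6 and 0.99 ± 0.09 for AAE16. The value of AAE16 lies just outside the fold threshold that the study used in its selection. It is the one value of these 12 that does, while LACS1 in fruits relative to leaf buds, at 1.28 ± 0.12, lies nearest inside. AAE16 exceeded the threshold in 14 of 22 other settings, among them 1.02 with DESeq2's size factors or its test or without a low-count filter, 1.07 with only the 6 libraries compared and 1.11 with library totals alone in place of TMM. Leaving out each of the 15 libraries in turn gave 0.95 to 1.04, over the threshold 9 times, so AAE16 lay on the threshold and not to one side of it. LACS1 relative to leaf buds stayed inside in 21 of 22 settings and was 0.91 with library totals alone.

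Against leaf buds, the log2 fold change in fruits was 2.12 ± 0.13 (SE) for LACS6 and 1.82 ± 0.10 for AAE16. Against stems it was 2.39 ± 0.13 for LACS1, 3.23 ± 0.14 for LACS6 and 2.16 ± 0.10 for AAE16. Against roots it was 4.99 ± 0.15 for LACS1, 3.32 ± 0.14 for LACS6 and 1.87 ± 0.10 for AAE16. Fruits were higher for each member in all 4 comparisons, which share the fruit libraries and follow from how the members were chosen. Over all unigenes tested, 12.2% were DEGs higher in fruits than in mature leaves, 13.9% than in leaf buds, 11.9% than in stems and 17.7% than in roots.

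Differences among the 4 organs other than fruits were not part of the selection. Each member differed among mature leaves, leaf buds, roots and stems by edgeR's quasi-likelihood F test, with an adjusted p of 3.92e-14 for LACS1, 2.83e-08 for LACS6 and 2.66e-09 for AAE16. This call is common in these organs, since 77.8% of all unigenes tested received it. The size and direction of the differences set the members apart more than the call itself.

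LACS1 differed most between roots and the shoot organs. It was lower in roots than in stems (log2 fold change -2.61 ± 0.14, SE, adjusted p = 2.89e-12). It was also higher in mature leaves than in roots by 3.11 ± 0.14 on the log2 scale (adjusted p = 1.02e-13) and higher in leaf buds than in roots by 3.72 ± 0.14 (adjusted p = 1.05e-14), all by edgeR's quasi-likelihood test. Leaf buds exceeded stems by 1.11 ± 0.12 (adjusted p = 5.05e-07), and by 0.96 when the first leaf bud replicate was left out. Mature leaves were lower than leaf buds (log2 fold change -0.61 ± 0.12, adjusted p = 2.93e-04), and with library totals alone the difference was -1.09 (adjusted p = 1.08e-07), past the fold threshold. Mature leaves were higher than stems by 0.50 ± 0.12 (adjusted p = 0.00196) after TMM, a difference that shrank to 0.11 with library totals alone (adjusted p = 0.469).

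LACS6 was higher in mature leaves and leaf buds than in stems and roots. The log2 fold change was 1.01 ± 0.14 (SE) for mature leaves over stems (adjusted p = 2.79e-06) and 1.11 ± 0.14 for mature leaves over roots (adjusted p = 9.00e-07). For leaf buds it was 1.11 ± 0.13 over stems (adjusted p = 1.45e-06) and 1.20 ± 0.14 over roots (adjusted p = 1.80e-07). Roots and stems were not separated by edgeR (-0.09, adjusted p = 0.606, approximate 95% interval -0.41 to 0.23). Mature leaves and leaf buds were not separated either (-0.10, adjusted p = 0.575, interval -0.39 to 0.19), although their FPKM did not overlap. With library totals alone, LACS6 was lower in mature leaves than in leaf buds (-0.58, adjusted p = 8.70e-04), and the values for mature leaves over stems and roots became 0.62 and 0.66 (adjusted p = 8.97e-04 and 4.47e-04).

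AAE16 was highest in mature leaves among these 4 organs. Mature leaves exceeded leaf buds by 0.83 ± 0.10 (SE) on the log2 scale (edgeR, adjusted p = 2.48e-07), stems by 1.17 ± 0.10 (adjusted p = 1.77e-09) and roots by 0.87 ± 0.10 (adjusted p = 1.15e-07). With library totals alone these became 0.34, 0.77 and 0.43 (adjusted p = 0.00499, 1.23e-06 and 7.49e-04). Leaf buds exceeded stems by 0.34 ± 0.10 (adjusted p = 0.00844) and roots exceeded stems by 0.29 ± 0.10 (adjusted p = 0.0134). Without the first stem replicate leaf buds exceeded stems by 0.24 (adjusted p = 0.0964), without the second leaf bud replicate 0.27 (adjusted p = 0.0642), and without the first root replicate roots exceeded stems by 0.26 (adjusted p = 0.0576). Leaf buds and roots were not separated (0.04, adjusted p = 0.722, interval -0.17 to 0.26).

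**Figure D2:**
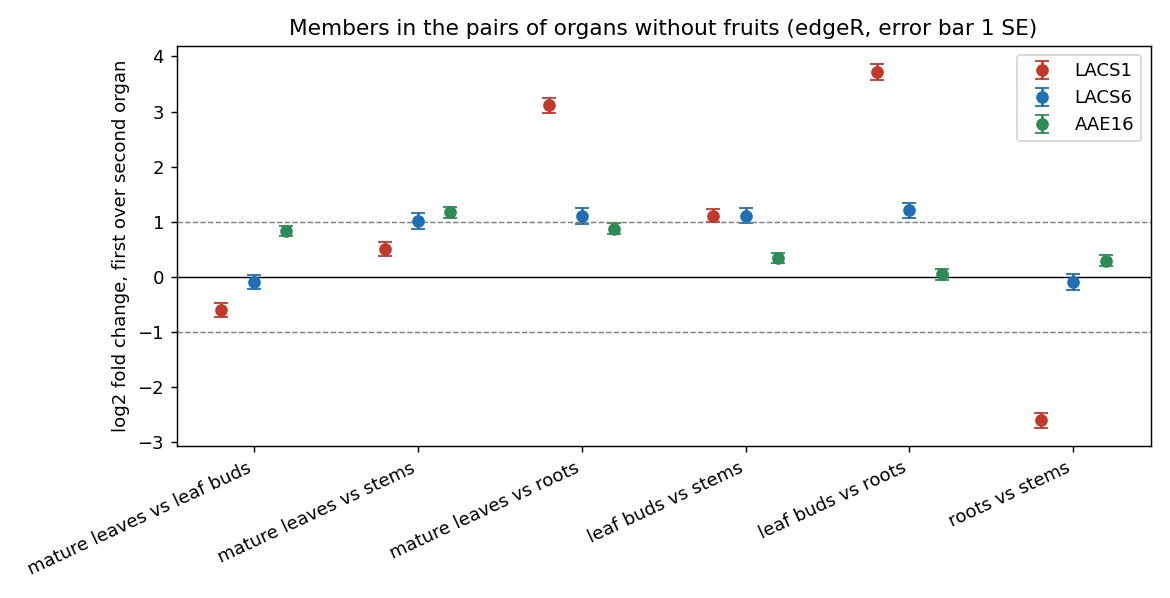
Log2 fold change of LACS1, LACS6 and AAE16 (vertical axis, first over second organ, after TMM) in the 6 pairs of organs without fruits, with 1 SE. Dashed lines mark the fold threshold of a DEG. LACS1 lay far from 0 in each pair with roots, at 3.11, 3.72 and -2.61, where AAE16 lay at 0.87, 0.04 and 0.29.

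Counted as DEGs, 0 of 3 members passed in edgeR, and also in DESeq2, between mature leaves and leaf buds, where 33.7% of all unigenes did. LACS1 and AAE16 passed the p threshold there and missed that of the fold. Between mature leaves and stems 2 of 3 passed (LACS6 and AAE16), beside 33.9% of all unigenes, and LACS6 fell below the fold threshold under several other settings. Between mature leaves and roots 2 of 3 passed (LACS1 and LACS6), beside 39.9% of all unigenes. Leaf buds and stems gave 2 of 3 (LACS1 and LACS6), beside 18.7%, and leaf buds and roots gave 2 of 3, again LACS1 and LACS6, beside 41.4%. Between roots and stems LACS1 alone passed, beside 35.3%. Counts over 3 members describe these unigenes only.

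The scale matters for comparisons with mature leaves. Relative to TMM, scaling by library totals moved the median of all unigenes by -0.48 on the log2 scale for mature leaves over leaf buds, by -0.40 over stems and by -0.44 over roots. For fruits the shift was 0.12 over mature leaves, -0.36 over leaf buds, -0.28 over stems and -0.32 over roots, and it was under 0.1 in the pairs among leaf buds, stems and roots. Set against the fruit mean, LACS1 in leaf buds was 53.0% by FPKM and 41.3% by the count share of the library (CPM) on TMM-scaled library sizes. AAE16 in mature leaves was 46.2% of fruits by FPKM and 50.2% by CPM. The order of the organs by their means was the same on both scales for each member, but LACS6 libraries of leaf buds and mature leaves overlapped by CPM and not by FPKM.

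**Figure D3:**
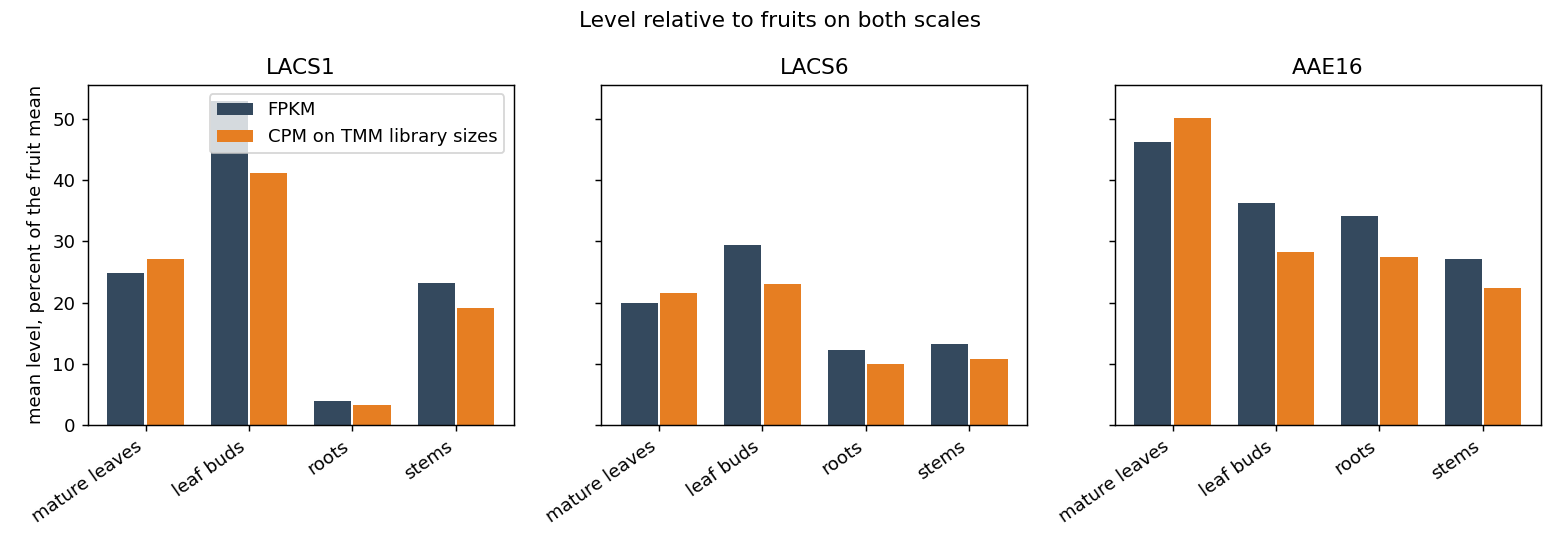
Mean level in mature leaves, leaf buds, roots and stems as a percentage of the fruit mean (vertical axis), by FPKM and by CPM on TMM library sizes, for LACS1, LACS6 and AAE16 (n = 3 libraries per organ). Mature leaves stand higher by CPM and the other organs lower, as for LACS1 in leaf buds with 41.3% by CPM and 53.0% by FPKM.

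Ratios between members within a library do not depend on the scaling of library size. They do depend on the length used for FPKM, which differed somewhat between libraries. The ratio of LACS6 to LACS1 was between 1.55 and 2.28 in fruits, 1.37 and 1.56 in mature leaves, 0.857 and 1.15 in leaf buds, 4.81 and 6.36 in roots, and 1.04 and 1.05 in stems. Roots thus stood clear of every other organ in this ratio. Among the 4 organs other than fruits, the organ means spanned 2.49 on the log2 scale (exact permutation test over organ labels of 12 libraries, two-sided, p = 6.49e-04, adjusted p = 6.49e-04 over 3 ratios).

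LACS6 relative to AAE16 lay between 1.91 and 2.44 in fruits. It lay between 0.933 and 0.997 in mature leaves, 1.59 and 1.99 in leaf buds, 0.790 and 0.820 in roots, and 1.03 and 1.21 in stems. The 4 organs did not overlap with each other, and their means spanned 1.18 on the log2 scale (exact permutation test, p = 6.49e-05, the smallest these 12 libraries allow, adjusted p = 9.74e-05).

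The ratio of LACS1 to AAE16 varied most. It was between 1.05 and 1.44 in fruits, 0.640 and 0.681 in mature leaves, 1.47 and 2.24 in leaf buds, 0.128 and 0.171 in roots, and 0.991 and 1.16 in stems. The span of the means among the 4 organs was 3.66 on the log2 scale, or 12.7-fold (exact permutation test, p = 6.49e-05, again the smallest possible, adjusted p = 9.74e-05). Accordingly, the leading member changed with the organ. LACS6 was the highest of the 3 by FPKM in every fruit and stem library and in 2 of 3 leaf bud libraries. AAE16 was the highest in every mature leaf and root library. In the first mature leaf library its lead was very small, with 20.96 FPKM against 20.9 for LACS6. The lead of LACS6 rests on the scaling to length. By CPM, which is not scaled to length, LACS6 had the lowest mean in each organ. In fruits it had 51.7, against 231 for LACS1 and 163 for AAE16.

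**Figure D4:**
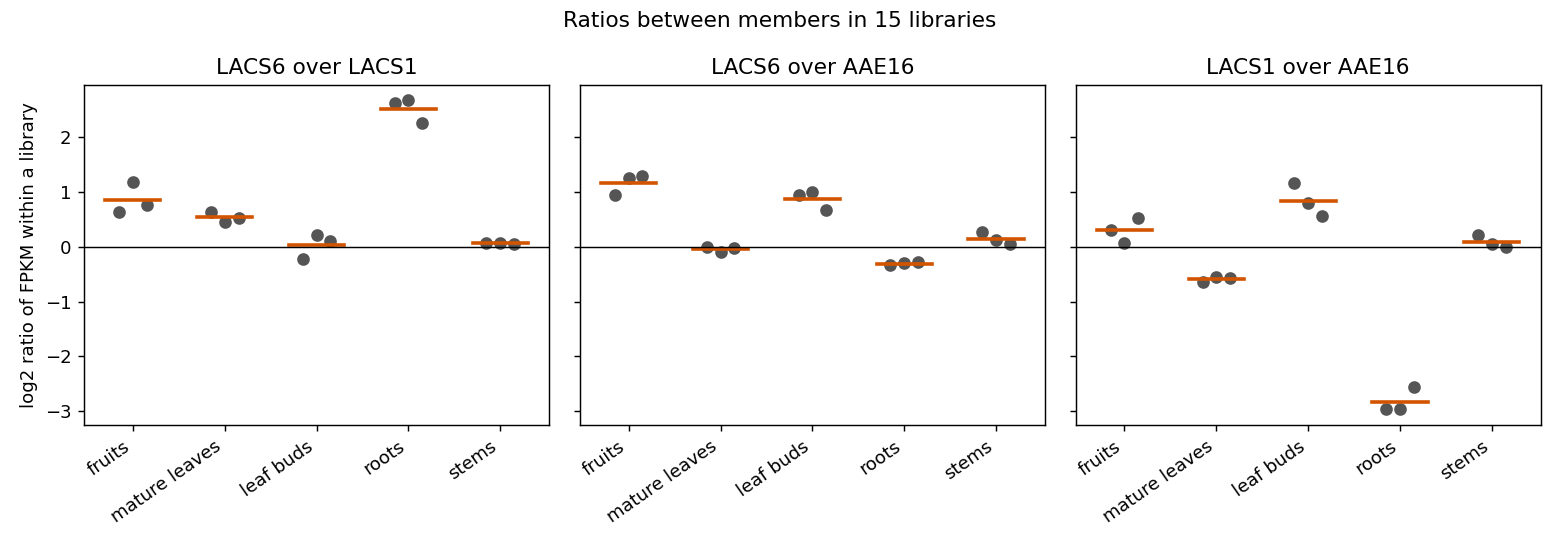
Log2 ratio of FPKM between pairs of members within each library (vertical axis) in fruits and in mature leaves, leaf buds, roots and stems. Points are libraries and lines are means (n = 3). Roots stand highest for LACS6 over LACS1, with a mean of 2.52, and lowest for LACS1 over AAE16, with a mean of -2.83.

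The study's lists hold 3 more unigenes of the same KEGG orthology group (K01897, long-chain acyl-CoA synthetase), which the study also chose as higher in fruits. Cluster-12235.44156 and Cluster-12235.36489 are annotated as LACS6 too, and Cluster-12235.40382 as LACS7, the second peroxisomal enzyme of Arabidopsis. Cluster-12235.44156 averaged 84.0 ± 6.57 FPKM in fruits, 34.6 ± 0.906 in mature leaves, 30.2 ± 2.60 in leaf buds, 16.1 ± 1.18 in roots and 15.7 ± 0.572 in stems (SD, n = 3 each). Its means lay above those of LACS1 and AAE16 in every organ. Cluster-12235.36489 averaged 13.1 ± 1.70 FPKM in fruits and between 1.62 and 3.95 in the other organs. LACS7 averaged 2.33 ± 0.434 FPKM in fruits (SD, n = 3) and between 0.317 and 1.13 in the other organs, from 8 to 43 fragments per library outside fruits.

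The LACS6 unigenes with neighbouring identifiers, Cluster-12235.44155 and Cluster-12235.44156, did not keep one ratio. Cluster-12235.44156 had 0.794 to 1.03 times the FPKM of Cluster-12235.44155 in fruits, 1.66 to 1.92 times in mature leaves, 1.02 to 1.12 times in leaf buds, 1.29 to 1.43 times in roots and 1.14 to 1.26 times in stems. The length implied by count and FPKM was 474 bases for Cluster-12235.44155 (median of 15 libraries) and 1703 bases for Cluster-12235.44156, beside 3855 bases for LACS1 and 3348 bases for AAE16. It varied between libraries, from 457 to 488 bases for Cluster-12235.44155 and from 3836 to 3867 bases for LACS1, so it is not the unigene length itself. Whether the pair are parts or copies of one gene was not tested. Their values are uncertain because the treatment of fragments that match several unigenes is not stated. The deposited counts of Cluster-12235.44155 were whole numbers in 15 of 15 libraries, against 11 of 15 for LACS1 and 12 of 15 for AAE16.

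Among organs without fruits, Cluster-12235.44156 was higher in mature leaves than in leaf buds (log2 fold change 0.68 ± 0.09, SE, edgeR, adjusted p = 3.18e-06), where LACS6 itself was not separated. Both were higher in mature leaves than in stems and roots, with 1.55 and 1.53 for Cluster-12235.44156. LACS7 was lower in mature leaves than in leaf buds (-1.22 ± 0.31, adjusted p = 0.00257) and higher in leaf buds than in stems (1.74 ± 0.31, adjusted p = 1.59e-04). Together, the 3 members made up between 64.1% and 68.3% of the summed FPKM of all 6 unigenes in fruits, between 56.5% and 59.6% in mature leaves, between 65.9% and 68.8% in leaf buds, between 58.7% and 59.4% in roots, and between 65.9% and 69.8% in stems.

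**Figure D5:**
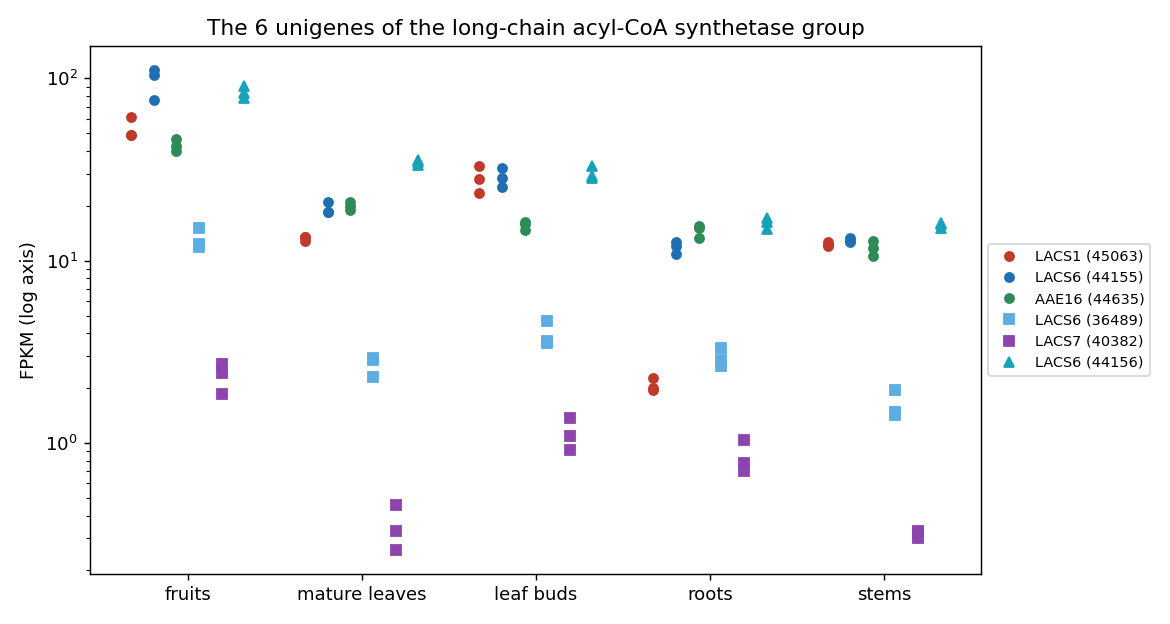
FPKM (vertical axis, log scale) of the 6 unigenes of the long-chain acyl-CoA synthetase group in the 3 libraries of each organ, labelled by name and by the last part of the identifier. LACS7 lies lowest in every organ, and LACS1 lies between 1.95 and 2.27 FPKM in roots.

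Other genes of fatty acid metabolism were taken from the study's lists, which were likewise chosen as higher in fruits on these libraries. The 8 other unigenes of fatty acid biosynthesis (acyl-ACP desaturases, ketoacyl-ACP synthases and ketoacyl-ACP reductases) are given by their DEGs, to be read against the shares of all unigenes above, which were 33.7% for mature leaves and leaf buds, 33.9% for mature leaves and stems, 39.9% for mature leaves and roots, 18.7% for leaf buds and stems, 41.4% for leaf buds and roots and 35.3% for roots and stems. In mature leaves 1 was lower than in leaf buds, 1 was lower than in stems, and 1 was higher and 1 lower than in roots. Relative to roots, 2 were higher in leaf buds and 1 was lower, and relative to stems 1 was higher and 1 lower in roots. Between leaf buds and stems edgeR gave 0 DEGs of 8, with 4 of 8 at an adjusted p and 6 of 8 at an unadjusted p under 0.05. Their median log2 fold change was -0.17 for mature leaves over leaf buds, against 0.002 over all unigenes tested, and 0.40 for leaf buds over stems, against 0.08. The acyl-ACP desaturase Cluster-12235.42753 varied most among the 4 organs, with 0.560 FPKM in mature leaves and 30.0 FPKM in roots on average. The ketoacyl-ACP synthase KAS2 (Cluster-12235.36948) varied least, between 33.6 FPKM in mature leaves and 49.9 FPKM in stems. A ketoacyl-ACP reductase unigene, Cluster-26137.0, was listed at 0 in roots and has no ratio. It averaged 1.32 FPKM in fruits, 0.123 in mature leaves, 0.09 in leaf buds and 0.047 in stems. It is counted among the 8 and in their medians, but at such levels it could hardly be called between organs other than fruits.

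The study's list of fatty acid degradation held 8 other unigenes, of which 6 are annotated to enzymes of beta-oxidation (acyl-CoA oxidases, multifunctional proteins and a ketoacyl-CoA thiolase), 1 to an acetoacetyl-CoA thiolase and 1 to an alcohol dehydrogenase. Leaf buds had 3 of these higher and 2 lower than roots, where 41.4% of all unigenes were called (median log2 fold change 0.34, against 0.05 over all unigenes). They had 2 higher than stems, where 18.7% were called (median 0.17, against 0.08). Mature leaves had 2 lower than leaf buds, 2 lower than roots, and 1 higher and 1 lower than stems, with medians of 0.09, -0.004 and 0.06. Roots had 1 higher than stems. The shares of all unigenes called in these pairs were 33.7%, 39.9%, 33.9% and 35.3%. Alcohol dehydrogenase ADH1 (Cluster-12235.39626) varied most, with 7.16 FPKM in roots and 0.440 FPKM in stems, and the multifunctional protein MFP2 unigene Cluster-12235.44062 least, with 26.7 FPKM in mature leaves and 36.9 FPKM in leaf buds.

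Very-long-chain elongation was represented by 6 ketoacyl-CoA synthase (KCS) unigenes. Between roots and stems, where 35.3% of all unigenes were called, 3 of the 6 were lower and 1 was higher in roots, with a median log2 fold change of -1.43 against 0.00 over all unigenes. Mature leaves had 4 higher and 1 lower than roots (median 2.91), 5 higher than stems (median 1.51) and 1 higher than leaf buds (median 0.49), beside 0.00, 0.08 and 0.002 over all unigenes. The shares of all unigenes called in these pairs were 39.9%, 33.9% and 33.7%. Leaf buds had 4 higher and 1 lower than roots, beside 41.4% of all unigenes, and 3 higher and 1 lower than stems, beside 18.7%. The KCS10 unigene Cluster-12235.48286 had the widest range among the 4 organs, at 22.8 FPKM in leaf buds and 0.250 FPKM in roots, and KCS1 (Cluster-12235.48777) the narrowest, at 8.61 FPKM in roots and 7.40 FPKM in stems.

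Wax and cutin synthesis was represented by 11 unigenes, 7 of them annotated to CER1, which acts in alkane formation. Of these 7, Cluster-12235.44343, Cluster-12235.44345, Cluster-12235.44346 and Cluster-12235.44347 have close identifiers. Whether they are parts or copies of the same gene was not tested, so the counts below may not be of separate genes. Between roots and stems 10 of 11 were lower in roots, beside 35.3% of all unigenes called in either direction, and between leaf buds and roots 9 were higher and 1 lower in leaf buds, beside 41.4%. No median is given for this list, since several of its unigenes were listed at 0 in roots or mature leaves. Most of them were also scarce in mature leaves. There 7 were lower and 1 higher than in leaf buds, beside 33.7% of all unigenes called. Compared with stems, 5 were lower and 1 higher, beside 33.9%. Leaf buds had 7 higher and 1 lower than stems, beside 18.7%, and mature leaves 4 of 11 higher than roots, beside 39.9%. The 7 CER1 unigenes averaged at most 0.153 FPKM in mature leaves and at most 0.0400 in roots. At such levels they could hardly be called between mature leaves and roots, so this count is not a result about them. The CER1 unigene Cluster-12235.44346 averaged 115 FPKM in fruits, 0.140 in mature leaves, 14.8 in leaf buds, 0.0400 in roots and 1.74 in stems. The peroxygenase unigene Cluster-12235.23335 varied least among the 4 organs of those with a value above 0 in each, between 0.273 FPKM in mature leaves and 0.673 FPKM in stems.

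For each member, the unigenes with the most similar pattern were sought by Pearson correlation of log2 CPM over the 15 libraries, a description over libraries that share the fruit group by which the members were chosen. Names came only from the study's annotation of terpenoid and fatty acid unigenes, which it had chosen as higher in fruits. Similar unigenes of other pathways could therefore carry no name here. The 5 most similar to LACS1 had r between 0.986 and 0.991 and no name in the sources used here. The first, Cluster-12235.67980, averaged 43.4 FPKM in fruits, 5.49 in mature leaves, and 11.7 in leaf buds, was listed at 0 in roots, and averaged 2.26 in stems. The second, Cluster-12235.42504, was far more abundant, at 1219 FPKM in fruits, 73.1 in mature leaves, 190 in leaf buds, 1.46 in roots and 57.7 in stems. The others were Cluster-12235.35635, Cluster-12235.12942 and Cluster-12235.15301.

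LACS6 was most like Cluster-12235.43637 (r = 0.988), which averaged 16.9 FPKM in fruits and between 1.17 and 3.56 FPKM in the other organs. Cluster-28720.1, Cluster-12235.52183, Cluster-12235.39528 and the 1-deoxy-xylulose 5-phosphate synthase (DXS) unigene Cluster-12235.38533 followed, with r between 0.976 and 0.979. DXS, the entry enzyme of the plastidial MEP pathway, averaged 31.3 FPKM in fruits, 2.19 in mature leaves, 3.79 in leaf buds, 1.43 in roots and 1.52 in stems. The neighbouring LACS6 unigene, Cluster-12235.44156, ranked 34 of 57487 by likeness (r = 0.959). The same unigene ranked 19 by likeness to AAE16 (r = 0.963). Over the 12 libraries without fruits, its r was 0.897 with LACS6 and 0.882 with AAE16.

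AAE16 was most like unigenes of the MEP pathway, which makes isoprenoid precursors in plastids. Among all unigenes compared, 60 had r over 0.95 with AAE16. Of its 5 nearest unigenes, 3 are annotated to GCPE (also called HDS), Cluster-12235.41587, Cluster-12235.41588 and Cluster-12235.39717, and 1 to ISPE, Cluster-12235.31323, with r between 0.981 and 0.993. Cluster-12235.41587 and Cluster-12235.41588 have neighbouring identifiers, and whether they are parts or copies of one gene was not tested. Cluster-12235.41587 averaged 52.8 FPKM in fruits, 19.2 in mature leaves, 14.4 in leaf buds, 12.3 in roots and 9.79 in stems. The fifth, the terpene synthase unigene Cluster-12235.56663 (r = 0.979), was listed at 0 in roots and stems, where AAE16 was not. Over the 12 libraries without fruits, r between AAE16 and these 5 was between 0.931 and 0.978. None of the 5 stayed among the 5 nearest there or by Spearman correlation.

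Among themselves the members were alike to differing degrees. Over 15 libraries r was 0.92 between LACS6 and AAE16, 0.83 between LACS6 and LACS1 and 0.65 between LACS1 and AAE16. Over the 12 libraries without fruits the values were 0.63, 0.78 and 0.25. By likeness over 15 libraries, AAE16 ranked 167 of 57487 for LACS6 and LACS6 ranked 198 for AAE16, while LACS6 ranked 1250 and AAE16 6090 for LACS1.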

How the data were processed

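Members and lists were chosen with earlier results of these data known. The authors cleaned Illumina HiSeq reads (base calling with CASAVA 1.8, per the submitters' processing notes), assembled unigenes de novo with Trinity and counted fragments on them. For every library and unigene the authors deposited an estimated count, in part not whole, together with FPKM. The counting program was not given in the sources used here, and stem tables, which carry another abbreviation inside than their titles, were assigned by the tissue label. The identifiers of LACS1 and LACS6 come from the study's supplementary tables, since its text prints that of another unigene. The authors' own comparisons were not used.

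Estimated counts were rounded and fitted with edgeR 4.0.16 in R 4.3.3 in 1 model of 15 libraries and 5 organs, as the study's methods name edgeR: TMM, filterByExpr (minimum count 10, minimum total count 15), quasi-likelihood F test and Benjamini-Hochberg adjustment over 57488 unigenes. SE was the absolute log2 fold change over the root of F, and intervals used 10 residual degrees of freedom. The edgeR p-values reflect the spread between 3 replicates per organ, estimated together over all 5 organs, fruits included, and drawn toward that of other unigenes. Log2 CPM used a prior count of 2. The ratio test enumerated all 15400 divisions of 12 libraries. The steps were tested on simulated data. Unigenes named were the members, the others of K01897, the most and least variable of each list among the 4 organs, by the ratio of highest to lowest mean FPKM where none was 0, and 5 nearest patterns per member. Alternatives were DESeq2 1.42.0 with its size factors or its test, library totals alone, other filters, a replicate block, each library left out, only the 6 libraries compared, and for the ratios a pseudocount of 1 FPKM or estimated counts. Python 3.11.15, pandas 2.3.3, scipy 1.17.1 and matplotlib 3.10.9 were used.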

Additional observations from a re-analysis of the deposited data

How the results depend on the processing

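Each member's difference among the 4 organs without fruits, each ratio between members and each count over all unigenes kept its side of the threshold or stayed within 1.5 times under every alternative run. Library totals alone moved the fruit values furthest, except LACS6 over mature leaves, which moved furthest without the first fruit replicate (2.34). The log2 fold change of fruits over mature leaves became 1.11 for AAE16, which was over 1 in 14 of 22 alternatives. Over leaf buds it became 0.91 for LACS1, 1.75 for LACS6 and 1.46 for AAE16, over stems 2.11, 2.95 and 1.89, and over roots 4.68, 2.998 and 1.54. Under the same scaling LACS6 in mature leaves against leaf buds became -0.58 (edgeR, adjusted p = 8.70e-04) and LACS1 in mature leaves against stems 0.11 (adjusted p = 0.469). It gave 1 member as a DEG between mature leaves and leaf buds (LACS1, -1.09), 0 between mature leaves and stems and 1 between mature leaves and roots. After TMM, 33.7%, 33.9% and 39.9% of all unigenes were called in these pairs, and 18.7% between leaf buds and stems. Shares under the other settings are not given here. Between mature leaves and stems 1 member remained a DEG with DESeq2's size factors, with no low-count filter, with DESeq2's test and with only the 6 libraries compared, since LACS6 lay near the threshold. With each library left out in turn, the members that were DEGs numbered 1 to 2 between mature leaves and stems (1 without the first mature leaf or the second stem replicate) and 1 to 2 between leaf buds and stems (1 without the first leaf bud replicate). AAE16 ranged from 0.24 to 0.39 for leaf buds over stems, losing its call without the second leaf bud or the first stem replicate, and from 0.26 to 0.45 for roots over stems, losing it without the first root replicate. The cause was not tested in these cases. Whether same-numbered libraries of different organs came from the same trees is not stated. Of 30 such pairs, 0 had deviations correlated over 0.1 (range -0.13 to 0.07). Of 60 pairs with different numbers, 1 did (range -0.15 to 0.20). Low correlations cannot tell whether trees were shared. The replicate block changed no member's call, for example 1.01 for LACS6 in mature leaves over stems (adjusted p = 5.67e-06) and 0.34 for AAE16 in leaf buds over stems (adjusted p = 0.0123), and it gave 19255 DEGs between mature leaves and stems, against 19489 without it. Ratios permuted within replicate numbers had an adjusted p of 0.00694 for LACS6 over LACS1 and 0.0026 for the others. None of the 5 most similar unigenes of any member stayed among the 5 nearest by Spearman correlation or over the 12 libraries without fruits.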
